A study of Mus musculus with 16 samples.

Results

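Collagen, laminin and integrin genes were examined in endothelial cells sorted from the lungs of mice during the spread of a subcutaneous tumour. A gene was included where its symbol in the deposited table names a collagen chain (Col, number, a, number), a laminin chain (Lama, Lamb or Lamc and a number) or an integrin subunit (Itga or Itgb and a number, or Itgav). Itgb2, the beta subunit of the leukocyte integrins, was left out. These names matched 35 of the 17715 entries of the table: 15 collagen, 9 laminin and 11 integrin genes. The rule used symbols alone, but it was set with earlier results of these data known. Col1a2, Itga8 and Itgav are not analysed here.

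All mice were female C57BL/6N, and lung endothelial cells were taken by fluorescence-activated cell sorting at 4 stages. The d0 mice were wild type, with no tumour. The others had received cells of the mouse tumour line Lewis lung carcinoma under the skin, and were sampled with the primary tumour in place (d15), after the tumour had been cut out (d22) or with metastases (d36). There are 4 libraries per stage, named here by their title numbers. These run from 1 to 4 for d0 and from 3 to 6 for d15, and are 1, 4, 5, 6 for d22 and 1, 7, 8, 9 for d36. Values listed without replicate numbers follow that order. Replicate 1 of d36 is titled day 29, but its time point field, used here, gives d36. The labels call the libraries independent biological replicates. They give neither the ages of the mice nor the surface markers of the sort.

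Levels are reads per kilobase of transcript and megaread (RPKM), which scales for transcript length and depth. The RPKM of all entries summed to 258126 (d22 replicate 6) to 331034 (d36 replicate 7), so comparison between libraries is approximate. Comparison between genes rests on transcript lengths that are not given in the sources used here. Depth was approximately 93.4 to 152.1 M (mega) reads, at which 1 RPKM corresponds to at least about 93 reads per kilobase. The 12 pan-endothelial marker genes summed to 6060 to 7170 RPKM at d0, 5360 to 6760 at d15, 5030 to 5720 at d22 and 4060 to 5350 at d36. In d36 replicates 1, 7 and 8, 4 of the 5 tumour line markers found (Rhox5, Hmga2, Igf2bp2 and Prl2c2) lay above all earlier libraries, and these libraries also stood apart on the first principal component (scores of 42.9 to 57.5, against -4.79 for d36 replicate 9). Rhox5, a homeobox gene active in many tumour lines, read 148, 97.8 and 91.6 RPKM in replicates 1, 7 and 8 of d36, 11.1 in replicate 9 and 0 to 0.721 in the 12 libraries of the other stages. Values at d36 are therefore given by library for the genes that the d36 results turn on. In bulk RNA, more cells of a type and more RNA per cell cannot be told apart.

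Endothelial cells rest on a basement membrane, a thin sheet whose networks are built of collagen IV and of laminins. A laminin is a trimer of an alpha, a beta and a gamma chain, and the endothelial kinds carry the alpha 4 or alpha 5 chain. Fibrillar collagens, such as types I, III and V, and the beaded filaments of collagen VI belong to the connective tissue beyond that membrane and are made mainly by fibroblasts. Integrins are receptors of an alpha and a beta subunit that hold cells to these proteins: alpha 1 and alpha 2 with beta 1 bind collagens, alpha 3 and alpha 6 bind laminins, alpha 5 with beta 1 binds fibronectin, and beta 3 and beta 5 pair with alpha V to bind vitronectin and related ligands.

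**Figure D1:**
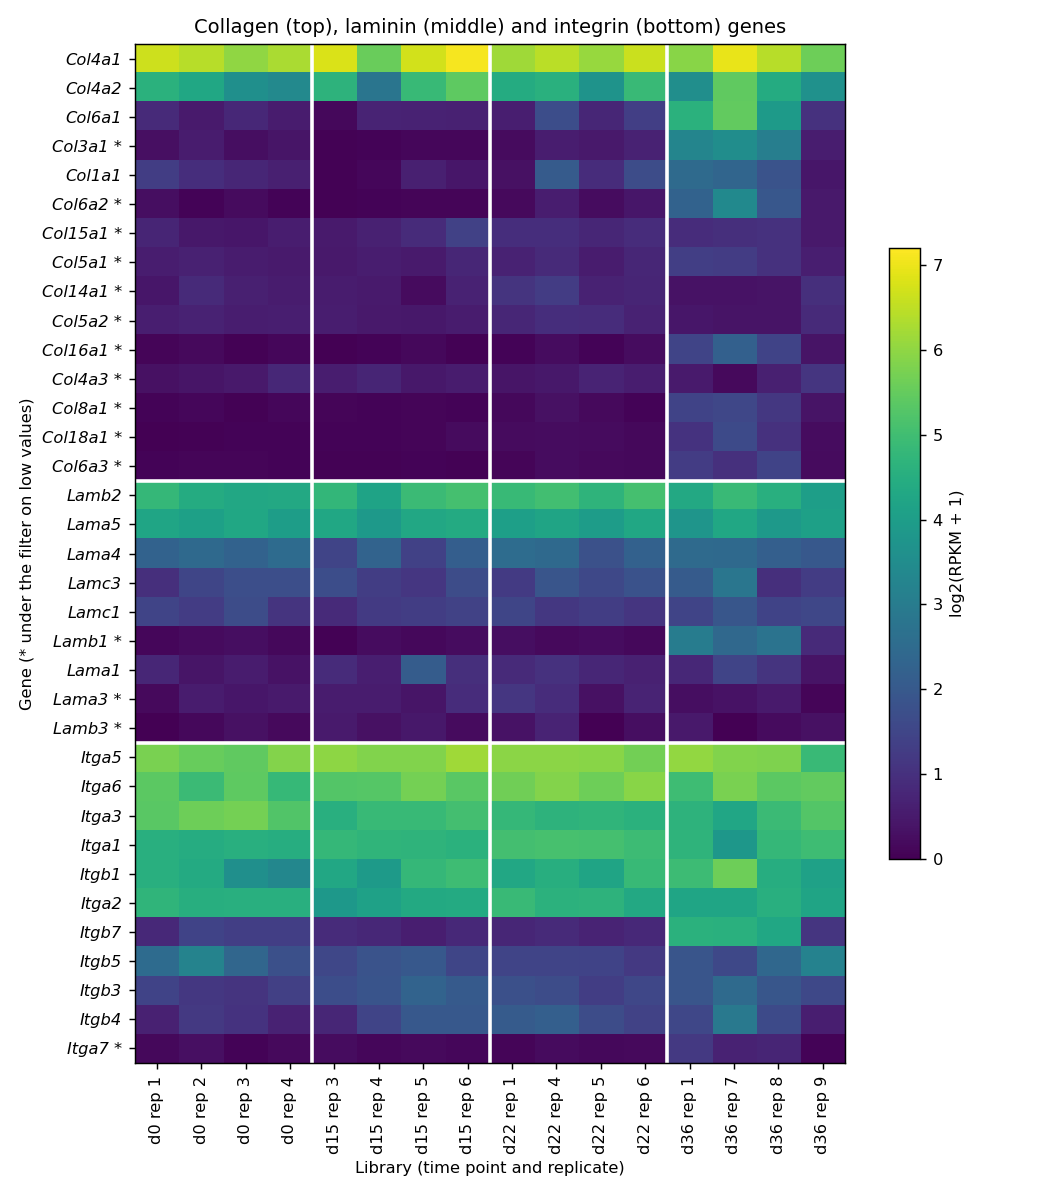
Levels of the 35 genes as log2(RPKM + 1) in the 16 libraries, with families separated by horizontal lines, stages by vertical lines, and an asterisk on the 15 genes under the filter on low values. Col4a1, Col4a2, Lamb2, Lama5 and the first 6 integrin rows are bright in every library, and a block of collagen genes, Lamb1 and Itgb7 is bright only in d36 replicates 1, 7 and 8.

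A gene was tested where it reached 1 RPKM in at least 4 of the 16 libraries. That held for 20 of the 35 genes: 4 collagen genes (Col1a1, Col4a1, Col4a2 and Col6a1), 6 laminin genes and 10 integrin genes. The tests are from limma on log2(RPKM + 1) over 14303 entries, with Benjamini-Hochberg adjustment at 0.05. Fold changes are on that log2 scale, which understates the change of low genes.

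Col4a1, the alpha 1 chain of collagen IV, had the highest level of all collagen and laminin genes in each of the 16 libraries. It lies on chromosome 8 from 11198423 to 11312826 (mm10, minus strand). At d0 it read 99.2, 84.4, 62.7 and 77.5 RPKM. It read 110, 45.7, 103 and 136 at d15, and 70.6, 86.8, 67.0 and 98.5 at d22. At d36 the values were 59.0, 124, 85.3 and 47.7. The groups overlapped throughout and no stage differed from d0 beyond the spread, with log2 fold changes of 0.19 ± 0.30, -0.00 ± 0.30 and -0.11 ± 0.30 (SE) at d15, d22 and d36 (limma adjusted p = 0.806, 0.997 and 0.818).

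Col4a2, the partner chain of Col4a1, starts beside it on the opposite strand (chromosome 8, 11312805 to 11449287), with annotated starts that overlap by 22 bases. Whether the counting used strand was not given in the sources used here, so reads from that overlap cannot be assigned. Its mean was 15.5 ± 6.45 RPKM (SD, n = 4) at d0, 25.0 ± 14.7 at d15, 20.9 ± 6.66 at d22 and 21.3 ± 14.8 at d36, with no call in any of the 5 comparisons. The ratio of Col4a1 to Col4a2 ran from 2.9 to 8.19 over the 16 libraries. Together both genes made up 95.3 ± 0.572% of the summed collagen RPKM at d0, 96.5 ± 2.03% at d15, 92.9 ± 1.87% at d22 and 72.5 ± 13.1% at d36. By library, the d36 share was 58.2, 67.7 and 74.6% in replicates 1, 7 and 8 and 89.4% in replicate 9.

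Other collagens of basement membranes were low. Col15a1, a basement membrane collagen of capillaries and muscle, ranged from 0.343 to 1.64 RPKM over all libraries. Its d22 libraries (0.697 to 0.934) lay above those of d0 (0.343 to 0.691), a difference that was not called when low genes were also fitted (0.34 ± 0.16, limma adjusted p = 0.195). Col4a3, an alpha chain of specialised basement membranes such as the glomerular and alveolar ones, ranged from 0.129 to 1.15 RPKM. Col14a1 and Col5a2 also stayed low, from 0.165 to 1.45 and from 0.289 to 0.915 RPKM.

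None of the 6 laminin genes tested passed in any of the 5 comparisons. In d15 against d0, d22 against d0 and d36 against d0, 2, 1 and 0 of the 6 had an unadjusted p under 0.05. Over all entries tested, limma called 1.18, 15.2 and 24% in those comparisons, and 16.5, 29.8 and 36.8% had an unadjusted p under 0.05. In d22 against d15 and d36 against d22, 3.06 and 11.8% of entries were called.

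The beta 2 chain gene Lamb2 had the highest level of the family in 15 of 16 libraries. It read 26.5, 20.6, 19.1 and 19.5 RPKM at d0, and 28.0, 31.4, 24.7 and 32.7 at d22. A d0 library lay within the d22 range, and the difference did not pass (0.43 ± 0.19, limma adjusted p = 0.136). At d15 and d36 Lamb2 averaged 26.3 ± 6.8 and 21.3 ± 5.4 RPKM. With the d0 and d22 libraries fitted on their own, Lamb2 passed at d22 (adjusted p = 0.0278). It also passed there with libraries weighted (0.45, limma adjusted p = 0.024). With a trend over length and GC content removed it passed as well (0.62, limma adjusted p = 0.0181).

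Lama5, the alpha 5 chain of the mature endothelial basement membrane, stayed within 12.6 to 20.3 RPKM in all 16 libraries. Its means were 16.8 ± 1.48, 17.8 ± 2.8, 16.7 ± 1.77 and 15.2 ± 2.61 RPKM from d0 to d36. Lama4, the other endothelial alpha chain, was lower, at 4.19 ± 0.477 RPKM at d0 and 2.68 ± 1.17 at d15 (-0.55 ± 0.20, limma adjusted p = 0.188). Lama5 exceeded Lama4 in every library, by 2.74 to 11.8 times. Of the gamma chains, Lamc1 ran from 0.823 to 2.8 RPKM and Lamc3 from 0.945 to 6.06. Lamc1, the common gamma chain, was thus under Lama5 and Lamb2 in every library. Lama1, an alpha chain of epithelial and embryonic membranes, ranged from 0.28 to 3.28 RPKM, with its highest value in d15 replicate 5. Lama3 and Lamb3, chains of the epithelial laminin of hemidesmosomes, stayed at 0.08 to 1.22 and 0 to 0.658 RPKM.

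The integrin genes most abundant in these cells coded for the receptors of laminin, collagen and fibronectin. Itga5 was the highest alpha subunit in 12 of 16 libraries, at 49.4 ± 6.73 RPKM at d0, 61.4 ± 7.31 at d15, 57.5 ± 5.34 at d22 and 51.2 ± 15.7 at d36. Itga5 was not called in any of the 5 comparisons. Its lowest value, 28.7 RPKM, was in d36 replicate 9, where the other 3 d36 libraries read 55.5 to 65.1. Itga2, a collagen receptor subunit, averaged 23.0 ± 1.43, 17.5 ± 3.26, 23.9 ± 3.91 and 18.8 ± 2.21 RPKM from d0 to d36 and was not called either, although its d15 libraries (13.3 to 20.2) all lay under those of d0 (22 to 25.1). Itgb1, the beta subunit that pairs with all of these alpha subunits, had 15.7 ± 6.59 RPKM at d0, 22.4 ± 7.3 at d15, 21.6 ± 4.47 at d22 and 28.8 ± 14.0 at d36 and was not called. It made up 63.5 ± 7.34, 72.7 ± 6.11, 75.0 ± 5.66 and 52.1 ± 7.06% of the summed beta subunit RPKM from d0 to d36.

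Comparing d15 with d0 shows the lung endothelium while a tumour grew elsewhere. None of the 20 genes passed limma's adjusted test, while 2 higher and 4 lower genes had an unadjusted p under 0.05. Of all entries, 0.608% were called higher and 0.573% lower. Of the 35 genes, 2 lay higher and 5 lower at d15 with no overlap between the groups, as did 5.09 and 6.27% of all 17715 entries. The higher were Itga1 and Itgb3, and the lower were Col1a1, Col3a1, Col6a3, Itga2 and Itga3. Itga3 and Itgb3 came closest to the threshold. Itgb3, the beta 3 subunit of the vitronectin receptor, read 1.75, 1.23, 1.11 and 1.59 RPKM at d0 and 2.25, 2.67, 3.87 and 3.10 at d15. Every d15 library exceeded every d0 library (0.71 ± 0.18, limma adjusted p = 0.0623). When the fit held only the d0 and d15 libraries, both genes passed (adjusted p = 0.0199 for Itgb3 and 0.0223 for Itga3). In the authors' deposited table, Itgb3 was higher at d15 and Col3a1, Itga3, Itgb5 and Itgb7 were lower at an adjusted p under 0.05, of 31 genes with a p. That table called 5.07% of its entries higher and 2.82% lower at d15. Marker sums of other cells also lay higher at d15 without overlap: 378 to 535 RPKM at d0 and 674 to 1950 at d15 for lung epithelium, 95.9 to 135 and 159 to 258 for lymphatic endothelium, and 26 to 45 and 47.8 to 134 for monocytes and macrophages. Each sum came mostly from a single gene, Sftpc, Lyve1 and Lyz2 in that order. These genes averaged 423, 99.9 and 33.3 RPKM at d0 and 975, 187 and 72.0 at d15. Fibroblast marker sums went the other way with overlap, at 2.74 to 6.64 RPKM at d0 and 1.3 to 3.06 at d15. The part of such cells in the d15 values was not tested.

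Comparing d22 with d0 asks what differed after resection of the tumour. Of the 10 tested integrin genes, 2 rose and 2 fell, against 8.09% of all entries higher and 7.1% lower. None of the 4 collagen or 6 laminin genes passed. When single libraries were left out, 1 to 3 of these calls held, the fewest without d0 replicate 2 or d22 replicate 6. With no filter 1 gene was higher and 2 were lower, beside 7.01 and 5.59% of entries. Groups did not overlap in 6 higher and 2 lower of the 35 genes, and in 13.4 and 10.3% of all entries. The median log2 fold change was 0.26 over the 10 integrin genes and 0.02 over all entries. The 3 lymphatic endothelial markers found, of 6 listed, summed to 95.9 to 135 RPKM at d0 and 138 to 204 at d22. Most of that was Lyve1, with means of 99.9 and 164 RPKM. Ccl21a averaged 0.773 and 3.21 RPKM, while Flt4 went the other way, at 6.49 and 4.8. The part of these markers in the d22 results was not tested. The calls fell on the laminin receptor subunits Itga3 and Itga6, the collagen receptor subunit Itga1 and the vitronectin receptor subunit Itgb5.

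Itga3 (chromosome 11, 95044474 to 95076801, mm10) codes for the alpha 3 subunit, a receptor for laminins with the alpha 5 chain. At d0 it read 39.7, 48.0, 51.3 and 37.0 RPKM. The d15 values were 22.3, 27.8, 27.7 and 32.0 RPKM, those of d22 were 26.6, 24.4, 25.2 and 23.4, and those of d36 were 24.1, 18.2, 28.8 and 37.9. The d15 and d22 libraries all lay under the d0 libraries, and at d36 replicate 9 alone reached into the d0 range. Itga3 fell by 0.79 on the log2 scale at d22 (SE 0.17, limma adjusted p = 0.00695) and by 0.70 at d36 (SE 0.17, adjusted p = 0.00785). Both calls held in all 8 fits that left out a single library of the groups compared. At d15 the difference of -0.66 ± 0.17 did not pass (adjusted p = 0.0707). In the authors' deposited table Itga3 was lower at all 3 stages, by log2 fold changes of -0.62, -0.78 and -0.68.

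Itga6 (chromosome 2, 71745616 to 71858416) codes for alpha 6, the other laminin receptor subunit. It read 40.7, 29.1, 41.3 and 27.2 RPKM at d0 and 48.6, 57.3, 47.8 and 59.0 at d22, with no overlap. It rose by a log2 fold change of 0.62 ± 0.17 (limma adjusted p = 0.0202). The call held in 4 of 8 fits that left out a library, and the adjusted p reached 0.0729 without d0 replicate 4. The ratio of Itga6 to Itga3 RPKM was 1.02, 0.608, 0.806 and 0.736 in the d0 libraries. The d15 libraries had ratios of 1.24 to 1.83, those of d22 had 1.83 to 2.52, and those of d36 had 1.14 to 2.9. Every library of the tumour stages thus had a ratio above every d0 library, and Itga6 exceeded Itga3 in all 12 of them and in 1 of 4 at d0. Both genes were called at d22, in opposite directions, so their ratio largely repeats those calls. It is a description and no separate test, and other pairs of genes were not examined.

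Itga1 (chromosome 13, 114953096 to 115101964), the alpha 1 collagen receptor subunit, lies next to Itga2 with a gap of 20995 bases. It was even within groups, at 22.1, 20.9, 22.3 and 21.3 RPKM at d0, 26.5, 25.2, 24.9 and 23.3 at d15 and 31.9, 33.1, 32.8 and 29.9 at d22. The 3 groups did not overlap each other. Its rise at d22 was 0.54 ± 0.17 (limma adjusted p = 0.0456), just under the threshold, and it was lost in all 8 fits with a library left out (adjusted p up to 0.0971). At d36 the values were 24.7, 12.9, 26.6 and 30.5 RPKM, with the lowest in replicate 7, and Itga1 was not called against d0 or d22. In the d22 comparison, changes over 10916 entries went with GC content (Spearman's rho of -0.34 across genes, a description). With the trend over length and GC content removed, the difference of Itga1 was 0.32 (adjusted p = 0.219).

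Itgb5 (chromosome 16, 33829665 to 33949338), the beta 5 subunit of the other vitronectin receptor, read 4.70, 8.30, 4.23 and 2.36 RPKM at d0 and 1.81, 1.77, 1.75 and 1.29 at d22. It fell by 1.06 on the log2 scale (SE 0.30, limma adjusted p = 0.025). The call was lost in 3 of 8 fits with a library left out (-0.81 and adjusted p = 0.0767 without d0 replicate 2, -0.99 and adjusted p = 0.0761 without d22 replicate 6, -1.05 and adjusted p = 0.0582 without d0 replicate 1). It was also lost with the trend over length and GC content removed (-0.91, adjusted p = 0.0785). At d15 it read 1.87, 2.61, 2.95 and 1.83 RPKM, and at d36 2.76, 1.95, 4.32 and 8.11. The d36 values overlapped the d0 values, with the highest in replicate 9, and no call was made there. Itgb4, which pairs with alpha 6, had 0.584 to 1.29 RPKM at d0 and 1.67 to 3.51 at d22, without overlap, and missed the threshold (0.93 ± 0.36, limma adjusted p = 0.0942). In a fit of the d0 and d22 libraries alone Itgb4 passed (adjusted p = 0.0048).

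**Figure D2:**
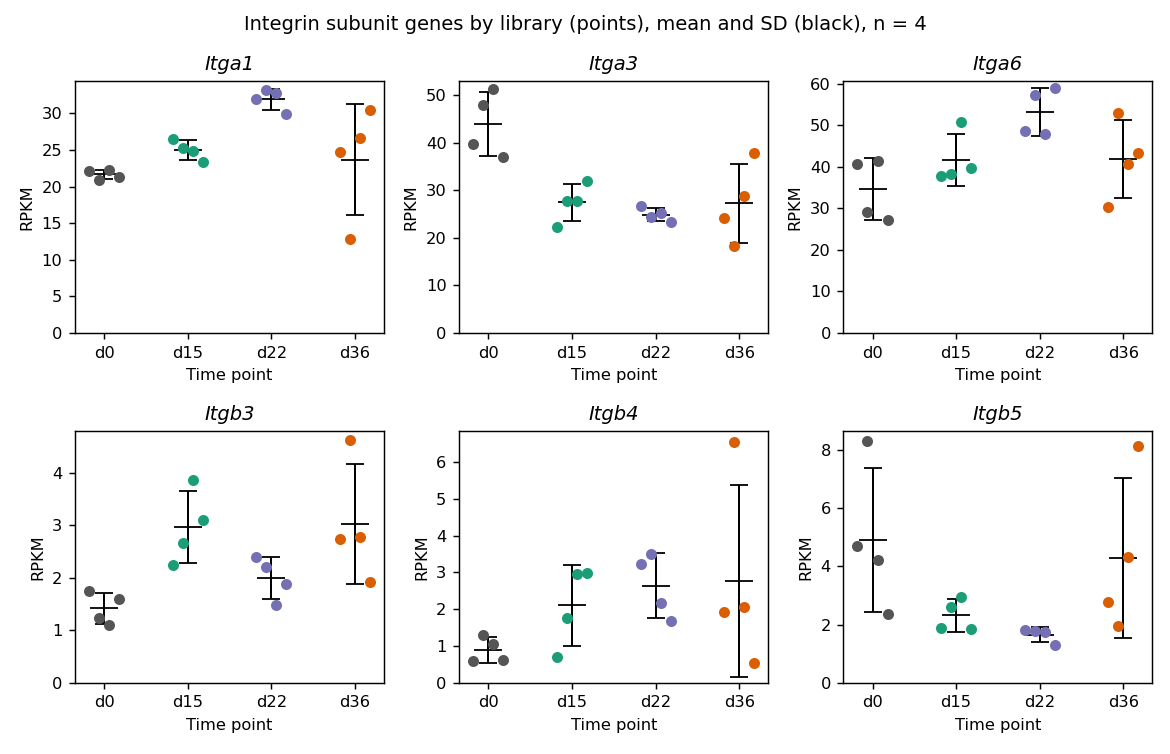
Levels of 6 integrin subunit genes in RPKM by stage, with points for the libraries and black lines for the mean and SD of 4 libraries. Itga3 drops under all d0 libraries at d15 and d22, Itga1 and Itga6 lie highest at d22, and at d36 the points spread widely.

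The authors' deposited table called more of the genes at d22: 10 higher and 3 lower of 32 with a p, beside 16.5 and 9.18% of its entries. The higher genes held Itga1, Itga6, Itgb3, Itgb4, the laminin genes Lama1, Lama3 and Lamb2, and the collagen genes Col15a1, Col6a2 and Col6a3. Those lower were Itga3, Itgb5 and Itgb7. For Lamb2 the authors' deposited table gives a log2 fold change of 0.47 (adjusted p = 0.00173). In d22 against d15 none of the 20 genes passed limma's adjusted test, while 3 higher and 1 lower had an unadjusted p under 0.05. Limma called 2% of entries higher and 1.06% lower. Groups did not overlap in 6 higher and 1 lower of the 35 genes, and in 10 and 4.31% of entries. The difference nearest to the threshold was that of Itga2 (17.5 ± 3.26 RPKM at d15 and 23.9 ± 3.91 at d22, 0.44 ± 0.14, adjusted p = 0.0867).

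**Figure D3:**
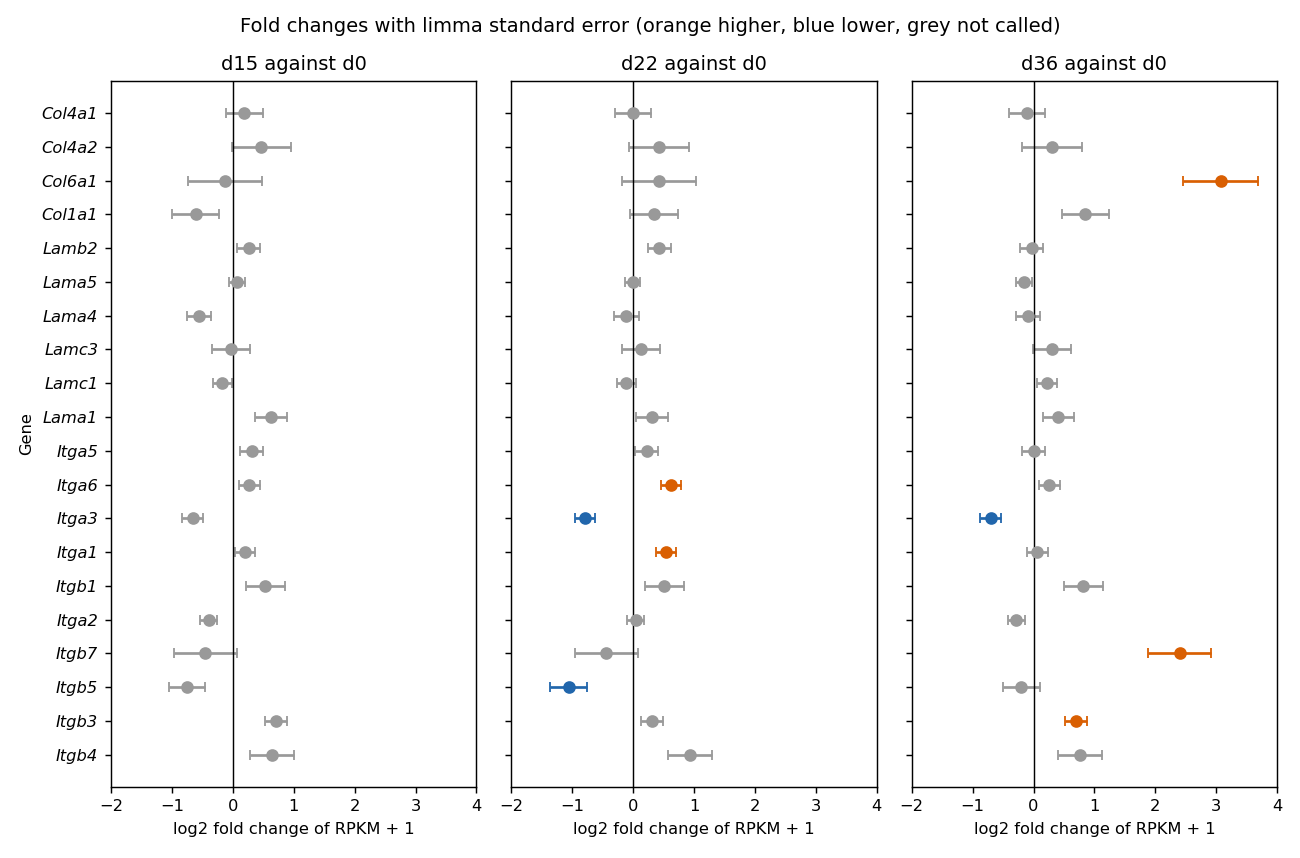
Log2 fold changes of RPKM + 1 against d0 for the 20 tested genes, with limma's standard error as bars, orange for higher, blue for lower and grey for not called. At d15 every point is grey, at d22 the coloured points are integrin subunits, and at d36 Col6a1 and Itgb7 lie far to the right of all other genes.

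Comparing d36 with d0 asks what differed once metastases had formed in the lung itself. Col6a1, Itgb3 and Itgb7 rose and Itga3 fell among the 20 tested genes, against 16.6% of all entries higher and 7.37% lower. By family these were 1 of 4 collagen, 0 of 6 laminin and 3 of 10 integrin genes. Without d36 replicate 9, 7 of the 20 passed, 6 of them higher. The share of all entries called in that fit is not given here, so this count is no result about these genes. The filter on low values matters here. Col6a1 and Itgb7 reached 1 RPKM in only 6 and 7 libraries, 4 of them at d36, while 7 collagens that did so in just 3 libraries of d36 failed the filter. When all 17715 entries were fitted, 12 of the 35 genes were higher and 1 lower, against 17.7 and 6.42% of entries: 8 of 15 collagen, 1 of 9 laminin and 3 of 11 integrin genes were higher. The groups did not overlap in 9 higher and 0 lower of the 35 genes, and in 14.7 and 6.4% of entries.

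Col6a1, the alpha 1 chain of collagen VI, showed the largest change of the tested genes (chromosome 10, 76708792 to 76726168). It read 0.816, 0.443, 0.751 and 0.453 RPKM at d0 and 23.3, 43.2, 14.3 and 1.04 in d36 replicates 1, 7, 8 and 9. The log2 fold change was 3.07 ± 0.61 against d0 (limma adjusted p = 0.00194) and 2.66 ± 0.61 against d22 (adjusted p = 0.0102), where d22 values were 0.518, 2.28, 0.696 and 1.51. Both calls held in all 8 fits with a library left out. When only the d22 and d36 libraries were fitted, the second did not pass (adjusted p = 0.081). Replicate 9 lay above the d0 libraries and within the d22 range.

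Col6a2, the alpha 2 chain encoded 85161 bases away on the same strand, followed the same order of libraries. It read 3.85, 9.66, 2.84 and 0.397 RPKM at d36 and at most 0.505 in the other 12 libraries (1.87 ± 0.40 against d0 with no filter, limma adjusted p = 0.00408). Col6a3, the large alpha 3 chain on chromosome 1, read 1.43, 1.01, 1.75 and 0.147 RPKM at d36 and at most 0.175 elsewhere (0.89 ± 0.18, adjusted p = 0.00334). The collagen VI genes together were 0.813 ± 0.329% of the collagen sum at d0 and 23.9, 21.9, 13.3 and 2.39% in d36 replicates 1, 7, 8 and 9. In the authors' deposited table Col6a1 and Col6a2 each have a log2 fold change of 4.16 at d36 with no adjusted p.

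Among the fibrillar collagens, Col3a1 (type III) read 8.76, 10.6, 7.39 and 0.484 RPKM at d36 and 0.0373 to 0.603 in the other 12 libraries. Its difference from d0 was 2.24 ± 0.45 with no filter (limma adjusted p = 0.00316). Col1a1, the alpha 1 chain of type I, read 4.56, 4.05, 2.56 and 0.347 RPKM at d36, 1.47, 0.929, 0.709 and 0.555 at d0, and 0.254, 3.23, 0.897 and 2.22 at d22. It therefore overlapped the other stages and was not called (0.85 ± 0.39, adjusted p = 0.122), and it passed without d36 replicate 9 (1.30, adjusted p = 0.00401). Col5a1, a type V chain that nucleates fibrils, read 1.5, 1.45, 1.05 and 0.528 RPKM against 0.404 to 0.805 elsewhere (0.48 ± 0.13 with no filter, adjusted p = 0.0148). Its partner chain Col5a2 went the other way in those libraries, at 0.355, 0.299 and 0.289 RPKM in replicates 1, 7 and 8 and 0.795 in replicate 9. With no filter it was lower at d36 than at d22 (-0.32 ± 0.09, adjusted p = 0.0332).

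The other collagens that were high in these libraries were Col8a1, a short-chain collagen of vessel walls, Col16a1, a fibril-associated collagen, and Col18a1, the basement membrane collagen from which endostatin is cleaved. At d36 Col8a1 read 1.72, 1.91, 1.24 and 0.307 RPKM, and at most 0.262 in the other 12 libraries. Col16a1 read 1.78, 3.58, 1.73 and 0.293, and at most 0.19 elsewhere. Col18a1 read 1.06, 2.07, 1.04 and 0.185, and at most 0.174 elsewhere. In all of these genes replicate 9 was far under the other d36 libraries and yet above each of the 12 libraries of the other stages. With no filter their log2 fold changes against d0 were 1.04 ± 0.17, 1.26 ± 0.25 and 0.93 ± 0.18 (limma adjusted p = 0.00111, 0.00264 and 0.00282).

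Upstream sequences are shown for genes of the d36 pattern, which were high in the same libraries, and for Itgb5, which fell at d22. They were taken from RefSeq on GRCm38.p6 (the mm10 assembly) for the 22 of 35 genes with an entry. Each is the 250 bases before the annotated start of the gene, written 5′ to 3′ along the gene's strand. The 4 printed hold no base of an annotated exon, while 10 of the 22 do. Capitals mark matches on either strand. The TATA box was searched as TATAAA. The Sp1 site was searched as GGGCGG. They come from chr1:45311288-45311537 (plus strand, Col3a1), chr10:76623631-76623880 (minus, Col6a2), chr16:57754738-57754987 (minus, Col8a1) and chr16:33829415-33829664 (plus, Itgb5).
Col3a1: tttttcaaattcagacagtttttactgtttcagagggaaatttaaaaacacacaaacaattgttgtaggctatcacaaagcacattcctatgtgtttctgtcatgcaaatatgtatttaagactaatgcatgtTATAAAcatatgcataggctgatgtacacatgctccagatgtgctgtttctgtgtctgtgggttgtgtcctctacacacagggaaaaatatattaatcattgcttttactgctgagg
Col6a2: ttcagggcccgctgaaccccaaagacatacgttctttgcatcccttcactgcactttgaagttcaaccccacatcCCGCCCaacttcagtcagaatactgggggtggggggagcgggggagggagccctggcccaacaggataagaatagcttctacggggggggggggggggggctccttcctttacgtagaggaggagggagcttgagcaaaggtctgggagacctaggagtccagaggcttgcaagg
Col8a1: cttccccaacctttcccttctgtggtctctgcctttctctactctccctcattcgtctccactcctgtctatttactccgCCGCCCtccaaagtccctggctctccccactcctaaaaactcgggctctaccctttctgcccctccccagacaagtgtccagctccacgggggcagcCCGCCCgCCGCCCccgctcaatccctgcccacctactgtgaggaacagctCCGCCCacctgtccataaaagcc
Itgb5: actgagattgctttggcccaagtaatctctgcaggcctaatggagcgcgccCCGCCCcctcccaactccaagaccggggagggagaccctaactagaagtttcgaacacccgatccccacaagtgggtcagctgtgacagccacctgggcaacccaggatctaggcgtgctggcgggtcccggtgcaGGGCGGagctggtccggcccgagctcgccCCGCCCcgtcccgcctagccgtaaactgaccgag

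The Col3a1 stretch differed from those of Col6a2 and Col8a1 in base composition and in the motifs it holds, while the latter were alike in both, with Sp1 as the only motif matched. The Col3a1 stretch has a GC content of 35.2% and 1 TATA box match, the only one among the 22 genes, where 12.4% of 32851 promoters of this length hold one. Col6a2, Col8a1 and Itgb5 have GC contents of 59.2, 60.8 and 65.2% and 1, 4 and 3 Sp1 matches. An Sp1 match was found in 12 of the 22 genes and in 32.7% of all promoters. CCAAT was found in 5 of 22 (33.8% of all), ACGTG, the core of hypoxia elements, in 1 (16.6%) and TGANTCA, the AP-1 site, in 1, Col6a1 (6.75%). None of the motif letters overlapped another motif in the stretches printed. A match is a description of these letters only.

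Lamb1 was the laminin gene of this pattern. It codes for the beta 1 chain, the alternative to beta 2, and lies on chromosome 12 from 31265234 to 31329644. In d36 replicates 1, 7, 8 and 9 it read 7.21, 4.37, 5.74 and 0.82 RPKM, against 0.02 to 0.215 in the 12 other libraries. The log2 fold change with no filter was 2.08 ± 0.32 against d0 (limma adjusted p = 0.000662) and 2.05 ± 0.32 against d22 (adjusted p = 0.00217). Lamb1 made up 0.698 ± 0.324% of the sum of Lamb1 and Lamb2 at d0 and 27.2, 13.4, 20.6 and 5.04% in the d36 libraries. Lamb2 itself read 19.3, 28.3, 22.1 and 15.4 RPKM there, within the range of the other stages for replicates 1, 7 and 8 and under all of them for replicate 9.

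Itgb7 (chromosome 15, 102215995 to 102231944), the beta 7 subunit known from homing lymphocytes and other leukocytes, read 0.777, 1.71, 1.53 and 1.52 RPKM at d0. At d15 it read 0.849, 0.738, 0.52 and 0.794, and at d22 0.694, 0.828, 0.657 and 0.78. At d36 the values were 23.0, 22.6, 18.7 and 1.15. Replicate 9 was thus inside the d0 range. Itgb7 rose by 2.40 ± 0.52 against d0 (limma adjusted p = 0.00366) and by 2.84 ± 0.52 against d22 (adjusted p = 0.00292), and both calls held in all 8 fits with a library left out. With the d22 and d36 libraries fitted alone, the second had an adjusted p of 0.0504. Itga7, the alpha subunit of muscle laminin receptors, read 1.29, 0.613, 0.687 and 0.0509 RPKM at d36 and 0.0485 to 0.228 elsewhere (0.51 ± 0.16 with no filter, adjusted p = 0.0287).

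Itgb3 was higher in all 4 d36 libraries than in every d0 library. It read 2.75, 4.63, 2.78 and 1.93 RPKM at d36, and rose by 0.70 ± 0.18 against d0 (limma adjusted p = 0.00942). The call held in all 8 fits with a library left out (adjusted p up to 0.0343). The beta 3 subunit is also part of the platelet fibrinogen receptor. Of 7 platelet and megakaryocyte markers listed, 3 were found. Their sum was 0.326 to 0.676 RPKM at d0, 0.496 to 1.8 at d15 and 0.224 to 1.06 at d22. At d36 it was 4.12, 11.5, 2.93 and 1.01, mostly from Pf4 (2.47, 8.59, 2.69 and 0.536). In d36 replicate 8 the others, Gp9 and Ppbp, read 0.0717 and 0.17 RPKM, within their d0 ranges. The part of these markers in the Itgb3 result was not tested. Itgb1 read 29.5, 48.2, 21.3 and 16.3 RPKM at d36 and 22.5, 20, 11 and 9.12 at d0 and missed the threshold (0.82 ± 0.32, adjusted p = 0.0701). It passed without d36 replicate 9 (1.04, adjusted p = 0.0159) or without d0 replicate 1 (1.01, adjusted p = 0.0389). Itgb4, at 1.91, 6.53, 2.06 and 0.529 RPKM, also passed only without replicate 9 (1.12, adjusted p = 0.0128) among the fits that left out a library.

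Over the 35 genes, replicates 1, 7 and 8 of d36 all exceeded the 12 libraries of the other stages in 11: Col3a1, Col5a1, Col6a1, Col6a2, Col6a3, Col8a1, Col16a1, Col18a1, Lamb1, Itga7 and Itgb7. Of all 17715 entries, 12.7% did so. By family this was 8 of 15 collagen, 1 of 9 laminin and 2 of 11 integrin genes. In each of the 11 the 3 libraries also exceeded replicate 9. Replicate 9 lay above all d0 libraries in 8 of the 11 and above all 12 in 4 (Col16a1, Col18a1, Col8a1 and Lamb1).

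Markers of other cells moved with these genes. Of the 8 tumour line markers listed, 5 were in the table, and their sum was 1.07 to 1.16 RPKM at d0, 0.747 to 1.59 at d15, 0.95 to 1.61 at d22 and 13.0 to 170 at d36. Hmga2, Igf2bp2 and Prl2c2 were listed at 0 in all d0 libraries. Hmga2 read 8.48, 6.83, 7.96 and 0.268 RPKM in d36 replicates 1, 7, 8 and 9. The fifth marker, Krt7, did not stand apart, at 1.16, 0.977, 0.955 and 1.25 RPKM there and up to 1.11 elsewhere. The 8 lung epithelium markers found, of 10 listed, summed to 378 to 535 RPKM at d0, 674 to 1950 at d15, 201 to 681 at d22 and 306 to 475 at d36. Of these, the keratin genes Krt18 (90.1, 71.2, 46.1 and 5.66 RPKM) and Krt8 (57.6, 44.7, 29.2 and 2.55) were high in d36 replicates 1, 7 and 8. The surfactant genes were not, with means of 423 RPKM at d0 and 291 at d36 for Sftpc and of 11.4 and 8.79 for Sftpb.

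The 7 fibroblast markers found, of 11 listed, summed to 2.74 to 6.64 RPKM at d0, 1.30 to 3.06 at d15, 4.14 to 7.66 at d22 and 30.8, 19.7, 37.5 and 5.34 in the d36 libraries. Lum, a proteoglycan of collagen fibrils, read 22.8, 11.8, 26.7 and 1.01 RPKM there, while Pdgfra, the receptor that marks fibroblasts, read 1.01, 1.27, 1.53 and 0.208. The fibroblast markers Mfap5 and Pi16 were no higher at d36, with means of 1.13 and 0.583 RPKM against 1.38 and 0.675 at d0, and Mfap4 averaged 1.67 against 1.03 but read 0.325 in d36 replicate 7. The 8 pan-leukocyte markers found, of 9 listed, summed to 60.1 to 71.1 RPKM at d0, 62.9 to 76.8 at d15, 54.7 to 68.3 at d22 and 69.7 to 176 at d36. Tyrobp, a signalling adaptor of myeloid cells, read 3.49, 14.1, 19.3 and 1.97 RPKM at d36 and at most 1.13 elsewhere. Within d36, Tyrobp and Itgb7 (23.0, 22.6, 18.7 and 1.15 RPKM) were both lowest in replicate 9, as were Rhox5 and Krt18. For monocytes and macrophages, 8 of 9 markers listed were found. Their sum was 26 to 45 RPKM at d0, 47.8 to 134 at d15, 17.8 to 60.3 at d22 and 53.8 to 148 at d36. Most of it was Lyz2, with means of 33.3, 72.0, 34.6 and 62.9 RPKM from d0 to d36, so the high d15 sum rested on this gene. Of the others, Cd68 averaged 1.47, 2.13 and 7.79 RPKM at d0, d15 and d36, and C1qb 0.0584, 0.0434 and 7.03. Msln, the mesothelial marker, read 4.36, 10.7, 3.06 and 0.041 RPKM at d36 and 0 to 0.268 elsewhere. Pericyte and smooth muscle markers overlapped between stages, at 9.35 to 15.6 RPKM at d0 and 11.8 to 22.8 at d36. The part of these markers in the d36 results was not tested.

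**Figure D4:**
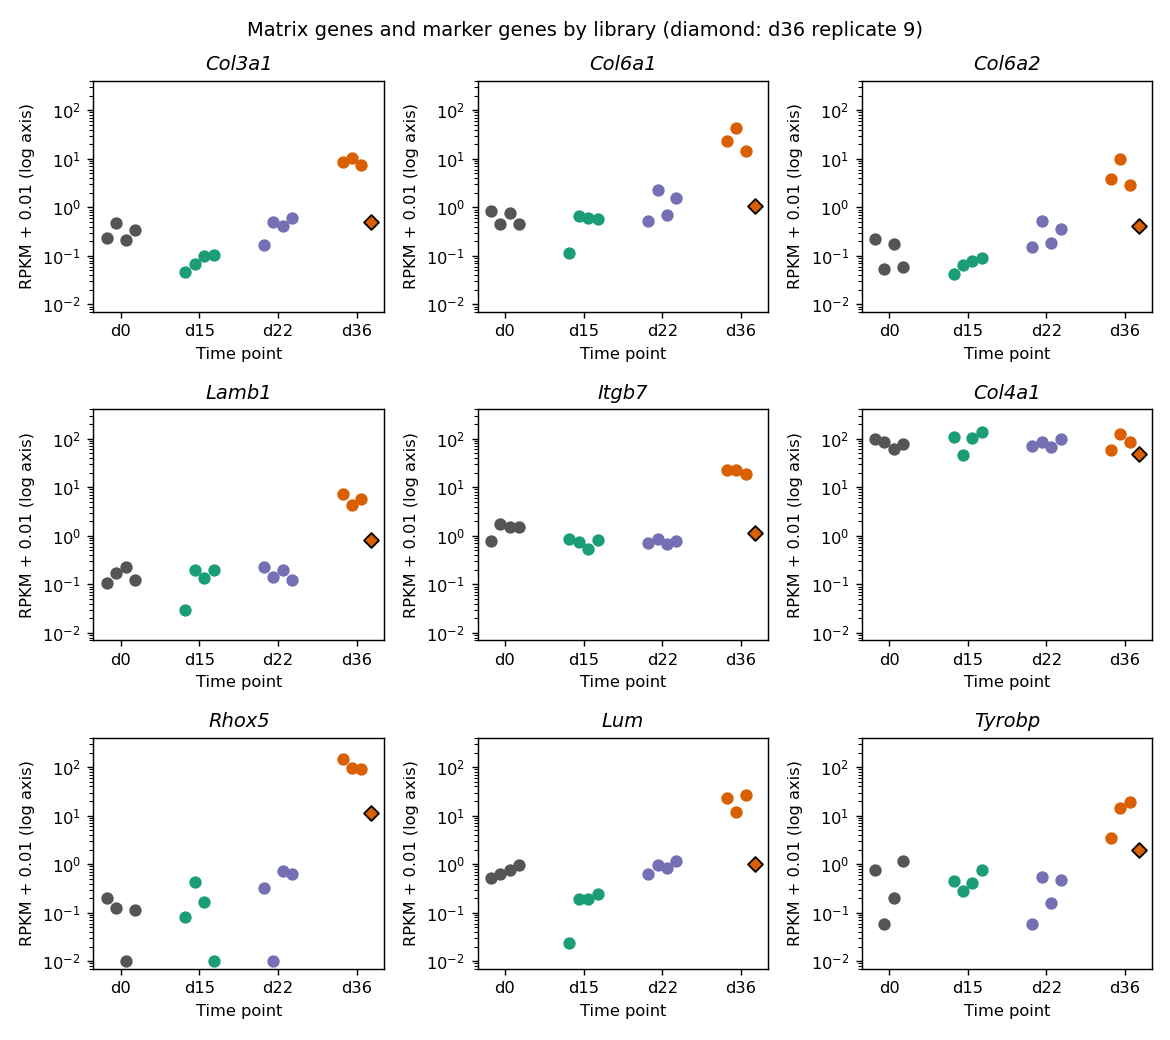
Levels of 5 genes of the d36 pattern, of Col4a1 and of the marker genes Rhox5 (tumour line), Lum (fibroblast) and Tyrobp (leukocyte) as RPKM + 0.01 on log axes, by stage, with a diamond for d36 replicate 9. In the top row, Lamb1 and Itgb7, replicates 1, 7 and 8 of d36 lie above all earlier libraries and the diamond lies under them, as in the marker panels, while Col4a1 shows no such split.

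In d36 against d22, Col6a1 and Itgb7 were higher and none of the 20 genes was lower, against 8.73 and 3.07% of entries. Among the genes that missed the threshold, Itgb5 differed by 0.86 ± 0.30 (4.28 ± 2.73 RPKM at d36 and 1.66 ± 0.244 at d22, limma adjusted p = 0.0701) and Itga1 by -0.48 ± 0.17 (adjusted p = 0.081). With no filter 10 of the 35 genes were higher and 1, Col5a2, was lower, beside 10.3 and 3.11% of entries. Groups did not overlap in 6 higher and 0 lower, and in 9.97 and 3.93% of entries. The authors' deposited table gave 10 higher genes and 1 lower, Itga3, at d36, of 33 with a p, beside 16.9 and 5.36% of its entries. Its higher genes were Col16a1, Col18a1, Col3a1, Col5a1, Col6a3, Col8a1, Itga7, Itgb3, Itgb7 and Lamb1.

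**Figure D5:**
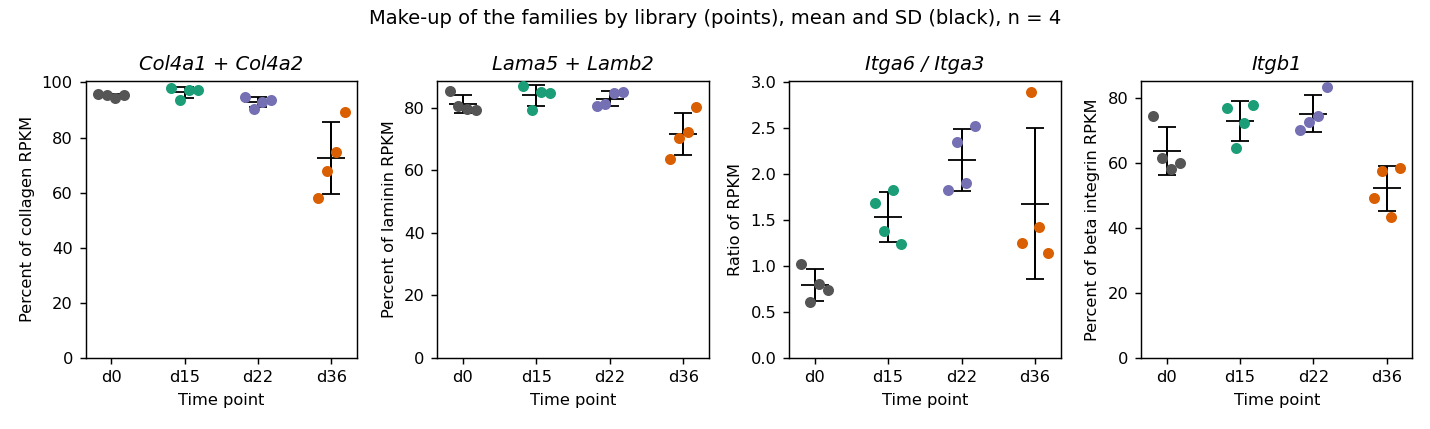
Make-up of the families by library (points) with mean and SD of 4 libraries (black): Col4a1 and Col4a2 as percent of the collagen sum, Lama5 and Lamb2 as percent of the laminin sum, the ratio of Itga6 to Itga3, and Itgb1 as percent of the beta subunit sum. The shares of the first 2 panels stay between 90.3 and 98.1% and between 79.2 and 87.1% until d36, where they average 72.5 and 71.7%, and the Itga6 to Itga3 ratio is lowest at d0.

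Genes that act with these families were followed in lists. Of 22 genes on them that rose at d36 against d0, 15 had replicates 1, 7 and 8 above the 12 libraries of the other stages, and in 19 these 3 libraries exceeded replicate 9. Over all tested entries, 11.3% had these replicates above the 12. The 22 were picked for being called higher at d36, which favours such an order. Its share among all entries called higher is not given here, so these counts are no trait of the lists. Of 20 collagen modification, folding and cross-linking genes found (28 listed), 17 were tested, and 4 rose and 0 fell at d36 against d0, beside the 16.6 and 7.37% of all entries. These were Pcolce, an enhancer of procollagen processing (49.9 ± 32.1 against 1.36 ± 0.615 RPKM, 77.2, 61.7, 57.3 and 3.48 in replicates 1, 7, 8 and 9, 3.87 ± 0.61, limma adjusted p = 0.000431), the cross-linking oxidase Loxl3 (1.5), the lysyl hydroxylase Plod2 (1.49) and the prolyl hydroxylase subunit P4ha1 (0.81). The median of the 17 was 0.17, and 0.04 over all entries. At d22, Ppib, a prolyl isomerase of collagen folding, fell from 256 ± 23.3 to 180 ± 19.0 RPKM (-0.51 ± 0.12, adjusted p = 0.00911) as the single call.

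Of 8 tested basement membrane partner genes (18 listed), 1, 2 and 2 were called at d15, d22 and d36, beside 1.18, 15.2 and 24% of all entries. Nid1, which links laminin to collagen IV, rose at d36 from 18.7 ± 2.98 to 32.7 ± 7.32 RPKM (36.2, 35.7, 37.2 and 21.8 by library, 0.76 ± 0.15, limma adjusted p = 0.0017). Egflam, a laminin G domain protein, fell at d15 and d22, from 19.3 ± 5.1 RPKM to 7.78 ± 2.25 and 6.8 ± 1.67 (adjusted p = 0.0458 and 0.00478). Tinagl1, a basement membrane protein that binds integrins, rose at d22 (25.1 ± 5.82 to 48.9 ± 12.4 RPKM, 0.93 ± 0.28, adjusted p = 0.0334). Egfl7, a vascular matrix protein that is also on the pan-endothelial list, fell at d36 by 0.63 (SE 0.16, adjusted p = 0.0115).

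The receptors for collagen and laminin that are no integrins gave 4 rises among 7 tested at d36, beside 16.6% of all entries, with a median of 1.26 (0.04 over all entries). These were the syndecans Sdc1 (0.448 ± 0.166 RPKM at d0 and 15.5, 12, 10.6 and 1.7 in d36 replicates 1, 7, 8 and 9, 2.65 ± 0.37, limma adjusted p = 0.000185), Sdc2 (2.12) and Sdc4 (1.54) and the hyaluronan receptor Cd44 (28.8, 17.5, 19.2 and 9.53 RPKM at d36, 1.26). Cd44 also rose at d22, from 6.76 ± 0.627 to 11.4 ± 1.06 RPKM (0.67 ± 0.21, adjusted p = 0.0437). Of 11 tested integrin ligands outside the collagens and laminins, 1, 3 and 5 rose at d15, d22 and d36, beside 0.608, 8.09 and 16.6% of all entries, and 1 fell at d36, beside 7.37%. Fn1, fibronectin, the ligand of alpha 5 beta 1, rose from 0.0559 ± 0.0264 RPKM at d0 to 5.76, 4.12, 5.27 and 1.1 in the d36 libraries (2.13 ± 0.24, adjusted p = 4.73e-05). Vcam1, a ligand of alpha 4 integrins on activated endothelium, rose at d22 from 7.58 ± 2.13 to 26.4 ± 8.02 RPKM (1.67 ± 0.35, adjusted p = 0.00526) and read 52.0, 34.4, 25.9 and 11.3 at d36 (1.75 ± 0.35, adjusted p = 0.00209).

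Among 28 tested integrin adaptor and signalling genes, 0, 2 and 4 rose and 0, 0 and 3 fell at d15, d22 and d36. Over all entries 0.608, 8.09 and 16.6% rose and 0.573, 7.1 and 7.37% fell. Actn1, an actin cross-linker of adhesion sites, rose at d22 (3.16 ± 0.754 to 4.59 ± 0.153 RPKM, limma adjusted p = 0.0464) and d36 (9.34, 9.26, 7.58 and 5.67 RPKM, adjusted p = 0.000107), and Parva, the actin-binding parvin, rose at both stages by 0.39 and 0.37. Kank3, Lims2 and Sharpin fell at d36 by 0.81, 0.44 and 0.27, and of these Sharpin is known as an inhibitor of integrin activation. Of 12 tested matrix proteases and inhibitors, 4 rose and 1 fell at d36, beside 16.6 and 7.37% of all entries. Plau, the urokinase gene, fell at d15 from 2.68 ± 0.666 to 1.05 ± 0.297 RPKM (-0.84 ± 0.19, adjusted p = 0.0458), fell at d22 to 1.14 ± 0.476 (adjusted p = 0.0125) and rose at d36 to 6.72, 4.44, 7.08 and 4.00 (0.82 ± 0.19, adjusted p = 0.00642). Timp1, Timp3 and Adamts9 rose at d36 by 1.32, 0.82 and 0.41, and Mmp15 fell by 1.22. Timp1 read 11, 9.65, 8.51 and 1.11 RPKM in replicates 1, 7, 8 and 9, while Timp3 was highest in replicate 7 (171) and Mmp15 lowest there (1.95).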

How the data were processed

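Genes were chosen by symbol, and the genes, related lists and marker lists were all chosen with earlier results of these data known. The authors deposited a single table with an RPKM value per library, per the file headers. It also holds the authors' deposited log2 fold changes and adjusted p-values for d15, d22 and d36, with no comparison group named. The submitters' processing notes name STAR, DESeq2 and the build mm10 but not their versions or use. The annotation, transcript lengths and strand setting are not given in the sources used here. RNA was isolated with a PicoPure kit and amplified with a SMARTer Ultra Low kit from 10 ng, per the labels.

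From these values, log2(RPKM + 1) was fitted with limma 3.58.1 (R 4.3.3, intensity trend) over the 4 groups of 4 libraries with no covariate, so that all groups share an estimate of the spread per gene. Tests were two-sided and covered the 14303 of 17715 entries that reached 1 RPKM in 4 or more libraries. Benjamini-Hochberg adjustment was made within each of 5 comparisons (threshold 0.05). The fit was tested on simulated data. Values are mean ± SD over 4 libraries, and fold changes carry limma's SE. Named were all genes called in any comparison, and the main basement membrane and fibrillar collagen genes, laminin chains and integrin subunits whether called or not. Comparisons that share the d0 libraries are not independent of each other. Gene positions are from GENCODE vM21 (mm10), matched by symbol. Only 379 of 4043 low entries (9.4%) came out as whole reads in every library (tolerance 0.1 read), so depth is approximate and no count test was run. Alternatives covered the pseudocount, the filter, scaling, library weights, the groups fitted, a replicate block, and libraries left out.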

Additional observations from a re-analysis of the deposited data

Results flagged for a closer look

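Of 80 groups of 4 libraries (20 tested genes at 4 stages), 6 held a library far from the other 3, where the gap to the nearest exceeded Dixon's critical share of the group's range, and chance alone would give about 4. Col6a1 at d15 was lowest in replicate 3 at 0.105 RPKM, with the others at 0.573 to 0.65. Itga2 at d36 was highest in replicate 8 at 22.1 RPKM, with the others at 17.6 to 17.7. Itga6 at d15 was highest in replicate 5 at 50.8 RPKM (others 37.7 to 39.7), and the same library held the highest Lama1 value, 3.28 RPKM (others 0.534 to 0.954). Itgb5 at d22 was lowest in replicate 6 at 1.29 RPKM (others 1.75 to 1.81). Lamc1 at d36 was highest in replicate 7 at 2.8 RPKM (others 1.75 to 1.91).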

How the results depend on the processing

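The number of genes called moved with the library weights and with which libraries shared the estimate of spread, and no called gene changed direction under any alternative. Col6a1 and Itgb7 at d36 against d0 and Itga3 at d22 against d0 passed under all 20 alternatives run, while Itga1 at d22 failed in 11.

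Against main counts of 0 (d15 against d0), 4 with 2 higher and 2 lower (d22 against d0), 4 with 3 higher and 1 lower (d36 against d0), 0 (d22 against d15) and 2, both higher (d36 against d22), the alternatives gave the following. With no filter, which adds the other 15 genes, 1 was higher at d22 against d0, 13 were called with 12 higher at d36 against d0, and 11 with 10 higher and 1 lower at d36 against d22. Of these, 9 in each comparison with d36 are among the 15 added, and among the 20 the counts were the main ones, 4 and 2. A pseudocount of 0.1 gave 1 call, higher, at d15. Library weights gave 2 calls with 1 higher and 1 lower at d15, 4 higher at d22, 8 with 7 higher at d36 against d0, 1 higher at d22 against d15, and 4 with 1 lower at d36 against d22. Fitting only the compared groups gave 2 with 1 higher and 1 lower at d15, 7 with 4 higher at d22 and 0 at d36 against d22. Median-of-ratios scaling gave 1 higher at d22, and quantile normalization 5 with 3 lower at d36 against d22. No scaling moved the median of all entries by over 0.1. Shares of all entries called were given above for the fit with no filter. They are not given for the other alternatives, those with libraries left out included, so their counts describe the processing only.

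Leaving out single libraries gave 0 to 0 calls at d15, 1 to 3 at d22 (0 to 1 higher, 1 to 2 lower), 4 to 7 at d36 against d0 (3 to 6 higher, 1 lower in each), 0 at d22 against d15, and 2 to 5 at d36 against d22 (2 to 4 higher, 0 to 1 lower), the most without d36 replicate 9 in both comparisons with d36.

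Deviations of same-numbered libraries from their group means had r of -0.111 to 0.216 over 9 pairs. Pairs with different numbers had r of -0.358 to 0.354. No sign of pairing by number was seen, but so few pairs cannot settle whether the numbers pair the libraries. With a replicate block, 1 gene was higher at d22 against d0 and 0 were lower at d36 against d0. In that fit Itga6 at d22 (adjusted p = 0.113) and Itga3 and Itgb3 at d36 (0.0891 and 0.384) did not pass, while Lamc3 passed at d36 against d0 (1.06, adjusted p = 0.0147).

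The planned removal of a length and GC trend was not run on all entries, since 76.3% of those tested had a matched length. Chosen after seeing the data, the removal in entries without an AK identifier (92.7% matched) gave 1 lower at d22, where Itgb5 no longer passed, 2 lower at d36 against d0, and 4 calls with 2 lower at d36 against d22. With the removal, Lamb2 passed as higher at d22 (0.62, limma adjusted p = 0.0181) and Itga1 did not. Without the removal these entries gave the main counts. The cause of these moves was not tested. Genes near 1 RPKM are limited by the pseudocount, and the estimate of spread is shared with d36, whose libraries agreed least with each other (r across genes down to 0.92).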
